A study of Mus musculus with 12 samples.

Results

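The 43 genes described here sense DNA damage, carry that signal or repair the lesion, and they were taken by symbol from the 24883 entries of each deposited gene table. They were grouped by pathway as 16 genes of homologous recombination, 10 of the Fanconi pathway, 7 of checkpoint signalling, 5 of end joining and 5 of mismatch and base repair. Expression was measured by RNA-seq in GFP+ leukaemia cells sorted from mouse bone marrow, with 1 library from each of 12 mice. All 12 mice carried the same genotype, labelled MLL-AF9 transgenic, so that fusion oncogene of acute myeloid leukaemia was shared by every group. The vehicle group (n = 5) received vehicle only, and the iCT group (n = 3) was sampled 3 days after doxorubicin with cytarabine. The relapse group (n = 4) was sampled 10 days after the same 2 drugs. The labels give no dose, age, transgene promoter or source of the GFP, and no group of treated mice without leukaemia was analysed here.

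Doxorubicin poisons a topoisomerase and so leaves double-strand breaks, while cytarabine is a nucleoside analogue that stalls replication forks. Breaks are sensed by the kinases Atm and Atr, which act through Chek2 and Chek1 and mark the surrounding chromatin by phosphorylating the histone variant H2afx. The lesion is then sealed by end joining or, in cells that have copied their DNA, by homologous recombination, while the Fanconi proteins open crosslinks and the mismatch and base repair enzymes replace wrong or damaged bases. Much of this control acts on proteins rather than on transcript levels, and only transcripts were measured here.

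Many replication and repair genes carry binding letters of E2F, the factor that drives genes of the S phase, near their start sites. Promoter windows of 300 bases, from 250 before to 50 after a start site, were read from the RefSeq table for GRCm38.p6, which held 38 windows for 35 of the 43 genes. The genes without a window were Rad51d, Xrcc2, Rbbp8, Rad50, Nbn, Fancd2, H2afx and Prkdc. The letters TTTCCCGC, TTTCGCGC, TTTGCCGC or TTTGGCGC, on either strand, were found in 9 of the 38 windows (23.7%), against 744 of all 32851 windows in the table (2.26%). CCAAT, the letters of the factor NF-Y, was in 23 of the 38 (60.5%) against 37.4% of all windows, and TTTGAA, the letters of the cell cycle element CHR, was in 2 (5.26%) against 17.9%. The matches fell in 8 genes, namely Brca2, Bard1, Rad51c, Fancg, Chek2, Mdc1, Xrcc6 and Msh6, and they are shown because their share stood furthest, as a ratio, from that of all promoters. None of these 8 passed the expression test in any comparison. No other gene with a window passed either, because the only genes that did, H2afx, Rad51d and Prkdc, had no window. Each site is given 5′ to 3′ on the gene's strand with 10 bases on either side and the matched letters in capitals.
Bard1, chr1:71103164-71103191, minus strand: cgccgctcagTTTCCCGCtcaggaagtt
Rad51c, chr11:87404942-87404969, minus strand: ccccgcgaggGCGGGAAAagcaaggggt
Rad51c, chr11:87404478-87404505, minus strand: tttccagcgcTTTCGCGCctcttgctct
Fancg, chr4:43010336-43010363, minus strand: ttcttttcagTTTCCCGCggaaccgtct
Chek2, chr5:110839821-110839848, plus strand: gggattagccGCGGGAAAccaagacgtc
Xrcc6, chr15:82016313-82016340, plus strand: gggggtggaaGCGGGAAAtgcgagtggg
Msh6, chr17:87975055-87975082, plus strand: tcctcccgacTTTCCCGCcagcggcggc
For Brca2 and Mdc1 the whole 250 bases before the start site are shown. Among the genes with an E2F match, these were the ones with every relapse library above every vehicle library. The same held for Trp53bp1 and Parp1, whose windows had no E2F match, and for Fancd2 and Prkdc, which had no window. In Mdc1 the capitals mark a CCAAT and an E2F match, and in Brca2 an E2F match.
Brca2, chr5:150522371-150522620, plus strand: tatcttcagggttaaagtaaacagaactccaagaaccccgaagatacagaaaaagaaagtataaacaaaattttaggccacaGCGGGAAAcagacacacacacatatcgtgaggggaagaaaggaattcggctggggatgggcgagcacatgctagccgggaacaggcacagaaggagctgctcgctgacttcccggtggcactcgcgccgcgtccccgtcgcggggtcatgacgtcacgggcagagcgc
Mdc1, chr17:35841248-35841497, plus strand: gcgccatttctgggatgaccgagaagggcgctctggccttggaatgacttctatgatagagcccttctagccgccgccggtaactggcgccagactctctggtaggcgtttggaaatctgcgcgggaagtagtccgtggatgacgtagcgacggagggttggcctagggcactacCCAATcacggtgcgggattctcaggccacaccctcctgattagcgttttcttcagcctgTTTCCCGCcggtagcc
A match describes the letters only, and no binding was measured.

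Few of the 43 genes passed the test 3 days after chemotherapy. Levels are FPKM, fragments per kilobase of transcript scaled to the mapped fragments of the library, and changes are differences in log2(FPKM + 1), tested in 1 limma model of all 12 libraries with p adjusted over all 11019 genes tested. All 43 passed the filter on low values. In iCT against vehicle 1 of 43 passed (2.33%), H2afx, which was lower, against a background of 9.62% of all genes tested (3.31% higher and 6.31% lower). At an unadjusted p under 0.05 there were 11 of the 43 (25.6%), against 29.8% of all genes. The median change was -0.07, with 17 positive and 26 negative values. The median of all genes was -0.09, with 4611 positive and 6408 negative values. In 5 of the 43 (11.6%), Rad51c, Blm, H2afx, Xrcc1 and Ung, every iCT library lay below every vehicle library, and in 0 every one lay above, against 16.1% of all genes for either direction (5.49% above and 10.6% below).

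Between iCT and relapse 3 of 43 passed (6.98%), against a background of 9.72% (6.62% higher and 3.1% lower). H2afx and Prkdc were higher at relapse and Rad51d was lower. At an unadjusted p under 0.05 there were 13 (30.2%), against 29% of all genes. The median change was 0.28, with 33 positive and 10 negative values. That of all genes was 0.16, with 7303 positive and 3716 negative values. Without iCT mouse 1 the median of the 43 was 0.18, with 30 positive and 13 negative values, and that of all genes 0.11. The scaling of the libraries moved both medians. With median-of-ratios scaling the median of all genes fell to 0.06 and that of the 43 to 0.18, and with trends on length and GC content removed they were -0.01 and 0.12. This comparison shares the 3 iCT libraries with the one before, so the 2 sets of values are not independent. Every relapse library lay above every iCT library in 9 genes, namely Brca2, Rad51b, Rad52, Fanci, Mdc1, H2afx, Prkdc, Xrcc1 and Ung. The reverse held in 3, Rad51d, Xrcc3 and Fancb, so 27.9% did not overlap against 23.3% of all genes (16.9% above and 6.33% below).

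**Figure D1:**
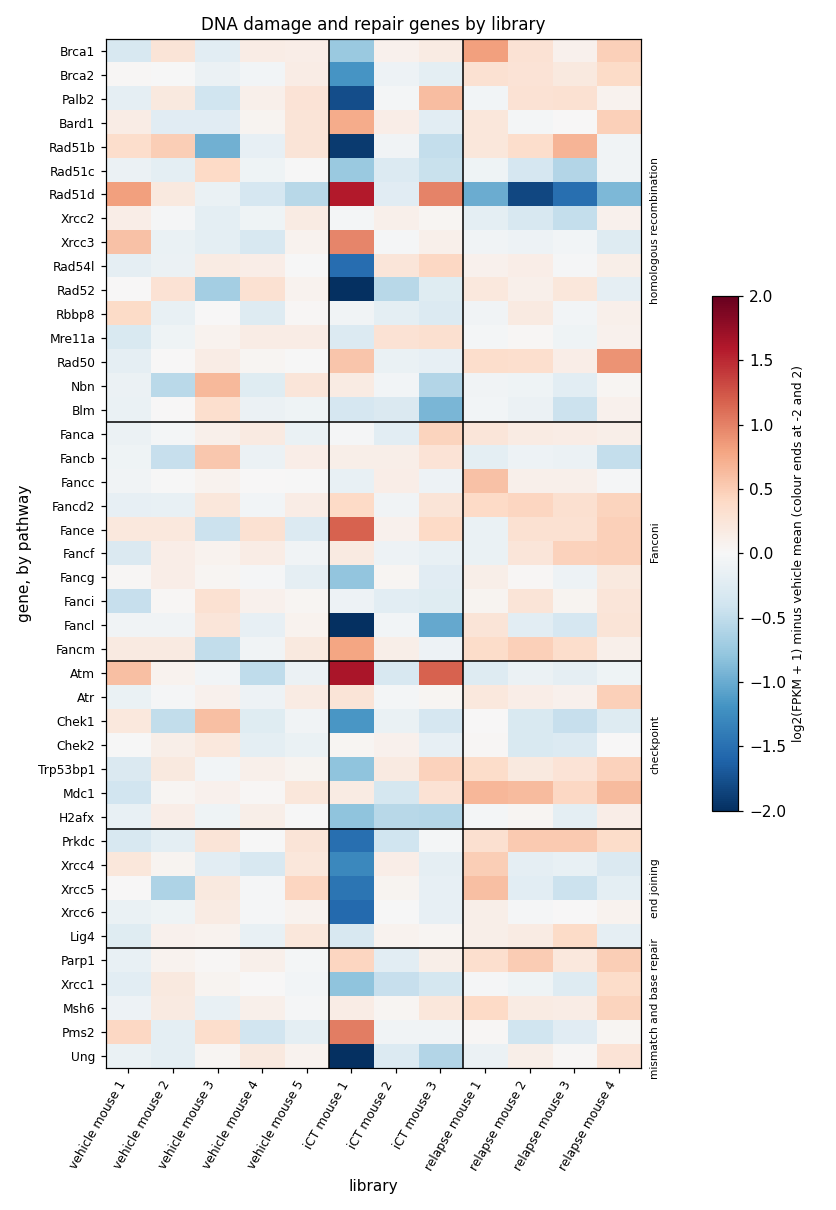
Difference of log2(FPKM + 1) from the vehicle mean for each of the 43 genes (rows, by pathway) in each library (columns); red is higher, blue is lower, and the colours end at -2 and 2. The strongest colours sit in the column of iCT mouse 1 and in the row of Rad51d, which is blue in all 4 relapse mice.

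Part of that pattern sat in 1 shallow library. The files' intervals implied 361914 fragments for iCT mouse 1 and 1225254 to 8359793 for the other 11 libraries. The median of the 43 genes rested on 39.8 to 249.8 implied fragments in the other 11 libraries. It was 9.8 in iCT mouse 1, where only the genes listed above 0 entered the median. In iCT mouse 1 alone 7 of the 43 were listed at 0, namely Brca2, Palb2, Rad51b, Rad52, Fancl, Prkdc and Xrcc5. At the mean level of iCT mice 2 and 3, that library would have held 1.47 (Rad51b) to 7.95 (Prkdc) fragments of each. Of 4827 genes with at least 10 FPKM in all other libraries, 20 were also listed at 0 in iCT mouse 1, so for these 7 genes the value of each library is given and no group spread. Where the omission of iCT mouse 1 turned a change to iCT or moved it by over 1.5 times, the value without it is given below for changes of at least 0.1 with either set of libraries.

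The sorted cells expressed the leukaemia and myeloid genes used to check their label, in that 9 of 9 passed the filter on low values. Hoxa9 was at mean levels of 52.8, 63.7 and 57.7 FPKM in vehicle, iCT and relapse. Of the 9 genes 1 was called higher and 0 lower in iCT. Their changes to iCT were negative in 7, with a median of -0.17 and a lowest value of -0.91. Markers of other cells moved with the groups, where 3.31% of all genes were higher and 6.31% lower in iCT. Of the tissue macrophage markers 6 of 7 tested were higher in iCT, and their summed level was 61.7 to 101 FPKM in vehicle, 142.2 to 253.3 in iCT and 40.55 to 52.91 in relapse libraries. All 5 osteoclast markers tested were higher, with sums of 11.74 to 26.57, 143 to 661.7 and 14.34 to 77.32 FPKM. Mature neutrophil markers were higher in 3 of 8, with sums of 951.4 to 3584, 2739 to 3521 and 1674 to 3259 FPKM. Monocyte markers were lower in 3 of 6, with sums of 2165 to 2376, 542.2 to 624.3 and 912.5 to 2059 FPKM. Erythroid markers were lower in 2 of 4, with sums of 9.84 to 198.5, 4.07 to 6.13 and 32.9 to 108.6 FPKM. Of the B and plasma cell markers 1 of 3 was lower, with sums of 24.99 to 50.5, 30.81 to 35.83 and 24.04 to 40.29 FPKM. Of the stromal and endothelial markers 1 of 4 was lower, with sums of 12.81 to 29.85, 10.8 to 13.43 and 13.36 to 28.08 FPKM. Of the T and natural killer cell markers 0 passed the filter, with sums of at most 3.79 FPKM. Slc4a1, Ebf1 and Kdr were at 0 in every iCT library, and no macrophage or osteoclast marker was. The part of these cells in the results below was not tested, and in such bulk samples fewer cells of a type and less RNA per cell cannot be told apart.

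Among the checkpoint genes, the damage-marking histone gene H2afx fell after chemotherapy and rose again to relapse, where it overlapped vehicle. H2afx was at 184, 223.7, 192.2, 222.5 and 203 FPKM in vehicle mice 1 to 5. The iCT mice 1 to 3 had 116.6, 138.4 and 136.7 FPKM, and relapse mice 1 to 4 had 199.6, 210.3, 178.7 and 225 FPKM. All 3 iCT libraries lay below all 9 others, and the vehicle and relapse libraries overlapped. The mean was 205.1 ± 17.8 FPKM in vehicle (SD, n = 5), 130.6 ± 12.1 in iCT (SD, n = 3) and 203.4 ± 19.5 in relapse (SD, n = 4), so the iCT mean was 0.637 of the vehicle mean. The change from vehicle to iCT was -0.65 (SE 0.104, 95% interval -0.87 to -0.42, adjusted p = 0.003544), and that from iCT to relapse was 0.64 (SE 0.109, interval 0.40 to 0.87, adjusted p = 0.005427). From vehicle to relapse it was -0.01 (interval -0.22 to 0.19, adjusted p = 0.977). Without iCT mouse 1 the first 2 changes were -0.57 (adjusted p = 0.01155) and 0.56 (adjusted p = 0.01567). H2afx lies at chr9:44334715-44336073 on the plus strand of GRCm38, and the locus holds Gm44335, a predicted RNA gene on the other strand. H2afx had the highest level of the 43 genes, above every other one in all 12 libraries except Rad51d in iCT mouse 1.

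The kinase genes upstream of that mark gave no call. Atm, which responds to double-strand breaks, was at 7.77, 5.06, 4.60, 3.08 and 4.34 FPKM in vehicle mice 1 to 5. In iCT mice 1 to 3 it was at 16.9, 3.62 and 12.1 FPKM, and relapse mice 1 to 4 had 3.82, 4.36, 4.11 and 4.48 FPKM. Thus iCT mice 1 and 3 lay above all other libraries and iCT mouse 2 lay within the vehicle range. The change to iCT was 0.83 (SE 0.361, adjusted p = 0.1466). It was 1.40 (adjusted p = 0.004788) without iCT mouse 2 and 0.43 (adjusted p = 0.4986) without iCT mouse 1. From iCT to relapse Atm changed by -0.99 (SE 0.378, adjusted p = 0.1135), by -1.56 (adjusted p = 0.003865) without iCT mouse 2 and by -0.58 (adjusted p = 0.3392) without iCT mouse 1.

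Atr, the kinase of stalled forks, was at 3.73, 4.08, 4.45, 3.80 and 4.79 FPKM in vehicle, 5.19, 4.01 and 4.28 in iCT and 4.97, 4.65, 4.49 and 6.19 in relapse mice, and the groups overlapped. Its change to iCT was 0.09 (SE 0.153, interval -0.25 to 0.42, adjusted p = 0.726), and the sign turned without iCT mouse 1. Chek1, the kinase that Atr activates, was at 11.3, 6.54, 15.1, 7.93 and 9.09 FPKM in vehicle, 3.76, 8.71 and 7.40 in iCT and 9.70, 7.56, 6.71 and 7.89 in relapse mice. The low value of iCT mouse 1 rested on 5 implied fragments, and the change of -0.54 (SE 0.268, adjusted p = 0.195) was -0.23 without it. Chek2, the kinase that Atm activates, was at 12.5, 13.8, 14.8, 10.9 and 11.4 FPKM in vehicle, 12.9, 13.4 and 11.1 in iCT and 12.8, 10.0, 10.3 and 12.7 in relapse mice. Its change to iCT was -0.02 (SE 0.142, interval -0.33 to 0.29, adjusted p = 0.946), with a sign that turned under median-of-ratios scaling. The remaining checkpoint members were the adaptors that gather on marked chromatin. Trp53bp1 had means of 3.47, 3.57 and 4.58 FPKM in vehicle, iCT and relapse, and Mdc1, which binds phosphorylated H2afx, had 5.91, 6.11 and 9.28. The change of Trp53bp1 to iCT was -0.05, and 0.32 (adjusted p = 0.2751) without iCT mouse 1. Of the 7 checkpoint genes 1 was lower and 0 higher in iCT (14.3%, against 9.62% of all genes). Their median change was -0.02, against -0.09 for all genes.

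**Figure D2:**
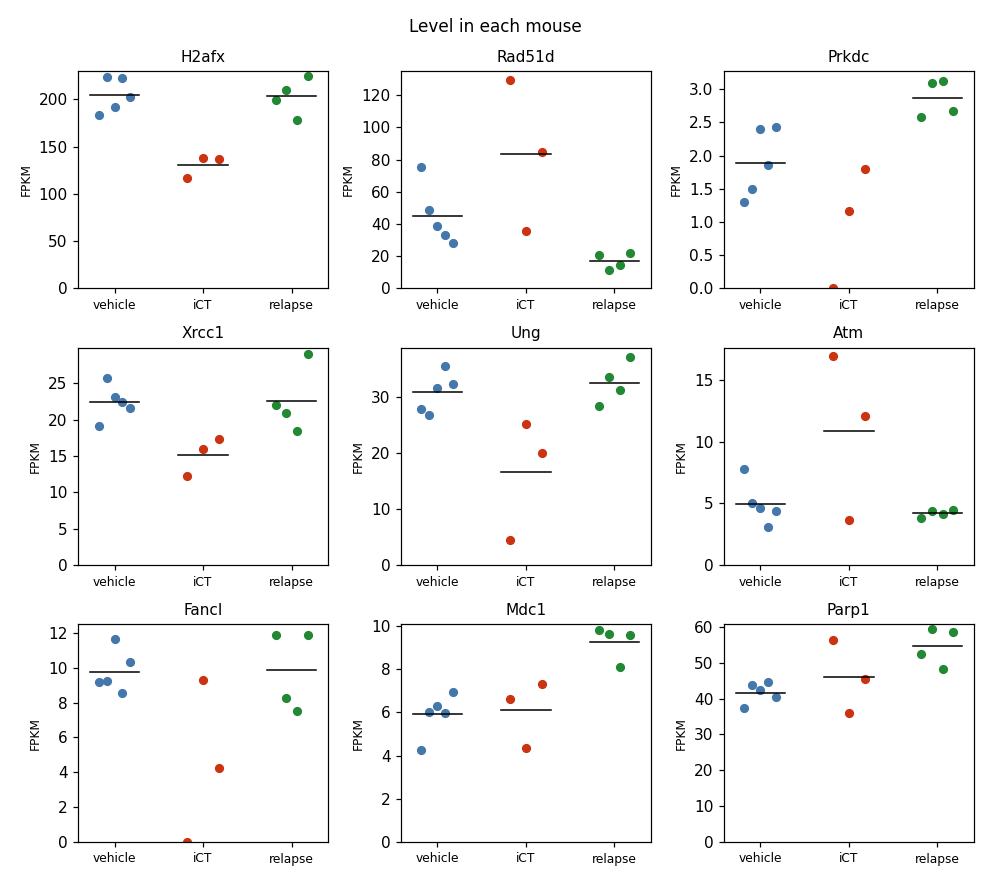
FPKM of 9 genes in each mouse (points) with the group mean (line), for vehicle (n = 5), iCT (n = 3) and relapse (n = 4). No mean is drawn for the iCT group of Prkdc and Fancl, and each axis starts at 0. H2afx in iCT mice (116.6 to 138.4) lies below both other groups, Rad51d is spread over 35.81 to 129.3 in iCT and low in relapse, and Prkdc and Fancl are at 0 in iCT mouse 1.

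Among the homologous recombination genes, Rad51d, a paralogue that helps load the strand-exchange recombinase, fell between iCT and relapse. It was at 75.4, 48.5, 38.6, 33.2 and 28.4 FPKM in vehicle mice 1 to 5, at 129.3, 35.8 and 84.6 in iCT mice 1 to 3, and at 20.6, 11.3, 14.1 and 22.1 in relapse mice 1 to 4. All 4 relapse libraries lay below all 8 others, and the vehicle and iCT libraries overlapped. The mean was 44.8 ± 18.7 FPKM in vehicle (SD, n = 5), 83.3 ± 46.8 in iCT (SD, n = 3) and 17.03 ± 5.17 in relapse (SD, n = 4). The change from iCT to relapse was -2.09 (SE 0.408, interval -2.98 to -1.21, adjusted p = 0.01035), and it was -1.69 (adjusted p = 0.02972) without iCT mouse 1. Against vehicle the relapse change was -1.31 (SE 0.358, interval -2.08 to -0.53) and did not pass, at an adjusted p of 0.1796 where the lowest of any gene tested was 0.1733. The change from vehicle to iCT was 0.78 (SE 0.390, adjusted p = 0.1961), with 1.29 (adjusted p = 0.02314) without iCT mouse 2 and 0.38 without iCT mouse 1. As with Atm, iCT mice 1 and 3 were above every vehicle mouse and iCT mouse 2 was not. The level of Rad51d also stood apart from its relatives per length of transcript, since the vehicle means of the other 15 genes of this pathway reached at most 15.95 FPKM. The files place it at chr11:82871961-82890624 on the minus strand, a locus that begins upstream in coordinate of the GENCODE M21 gene (82876434 to 82890614) and so holds bases beyond the 3′ end of that model.

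Of the mediators that bring the recombinase to a break, Brca2 had low levels throughout. Brca2 was at 1.31, 1.25, 1.09, 1.17 and 1.51 FPKM in vehicle, at 0, 1.11 and 0.983 in iCT and at 1.78, 1.73, 1.60 and 1.95 in relapse mice. Every relapse library lay above every other library. The change from iCT to relapse was 0.78 (SE 0.241, adjusted p = 0.0599), and 0.43 (adjusted p = 0.1239) without iCT mouse 1, and from vehicle to relapse 0.29 (SE 0.212, adjusted p = 0.5689). From vehicle to iCT it was -0.49 (SE 0.231, adjusted p = 0.1768), and -0.14 without iCT mouse 1. Brca1, its partner in choosing recombination, was at 2.35, 3.997, 2.61, 3.63 and 3.57 FPKM in vehicle, 1.49, 3.44 and 3.71 in iCT and 6.41, 4.10, 3.46 and 4.79 in relapse mice, with overlap between all groups. Brca1 changed to iCT by -0.16 (SE 0.247, adjusted p = 0.6765) and turned to 0.13 without iCT mouse 1. From iCT to relapse Brca1 changed by 0.58 (SE 0.258, adjusted p = 0.1582), and by 0.29 (adjusted p = 0.4539) without iCT mouse 1, whose value rested on 4 implied fragments.

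Rad52, which anneals single strands, was at 3.76, 4.75, 1.96, 4.83 and 3.97 FPKM in vehicle, at 0, 2.21 and 3.01 in iCT and at 4.45, 4.07, 4.53 and 3.18 in relapse mice. The change to iCT of -1.01 (SE 0.383, adjusted p = 0.1036) was -0.40 without iCT mouse 1 and -1.40 (adjusted p = 0.04281) without iCT mouse 3. Blm, a helicase that takes recombination intermediates apart, was at 7.12, 7.90, 10.1, 7.17 and 7.32 FPKM in vehicle, 6.02, 6.26 and 3.70 in iCT and 7.55, 7.16, 5.56 and 8.44 in relapse mice. All iCT libraries of Blm lay below all vehicle libraries, with a change of -0.51 (SE 0.188, adjusted p = 0.09597). It was -0.60 without iCT mouse 1, -0.63 (adjusted p = 0.0484) without iCT mouse 2 and -0.31 without iCT mouse 3.

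The other recombination genes gave no call in any comparison. With Rad51d included, 0%, 6.25% and 0% of the 16 genes passed in iCT against vehicle, relapse against iCT and relapse against vehicle. The shares of all genes were 9.62%, 9.72% and 0%. Bard1, the partner of Brca1, had a vehicle mean of 3.46 FPKM and a change to iCT of 0.22, which was -0.04 without iCT mouse 1. Palb2, which links Brca1 to Brca2, was at 1.998, 2.91, 1.58, 2.67 and 3.14 FPKM in vehicle, 0, 2.30 and 4.24 in iCT and 2.29, 3.15, 3.19 and 2.57 in relapse mice. The change of Palb2 to iCT was -0.40 (adjusted p = 0.5248) and turned to 0.29 (adjusted p = 0.4985) without iCT mouse 1, so its direction rested on the value listed at 0. The paralogue Rad51b was at 3.81, 4.31, 0.939, 2.37 and 3.50 FPKM in vehicle, 0, 2.57 and 1.69 in iCT and 3.40, 3.81, 4.997 and 2.58 in relapse mice. Its change to iCT was -0.82 (adjusted p = 0.196), and -0.28 without iCT mouse 1. The paralogues Rad51c, Xrcc2 and Xrcc3 had vehicle means of 3.62, 8.26 and 8.29 FPKM and changes of -0.48, 0.04 and 0.35, and that of Xrcc3 was 0.04 without iCT mouse 1. Rad51c was at 1.75 to 2.80 FPKM in iCT, below its vehicle range of 2.98 to 5.04. Rad54l, a translocase of the recombinase filament, had 12.9 FPKM and -0.29, and was at 3.81 in iCT mouse 1, on 2.59 implied fragments, against 15.3 and 17.5 in the others; without that mouse its change was 0.33 (adjusted p = 0.1438). Of the genes that resect the break, Rbbp8 had 8.68 FPKM and -0.18, Mre11a 15.95 FPKM and 0.11, Rad50 7.67 FPKM and 0.08, and Nbn 10.7 FPKM and -0.16. The changes of Mre11a, Rad50 and Nbn without iCT mouse 1 were 0.31, -0.15 and -0.32, so that of Rad50 turned. In relapse against vehicle Rad50 changed by 0.43 (unadjusted p = 0.0394, adjusted p = 0.3199).

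In the Fanconi pathway 0 of 10 genes passed in any of the 3 comparisons. In the order iCT against vehicle, relapse against iCT and relapse against vehicle, 9.62%, 9.72% and 0% of all genes passed. The median changes in that order were 0.02, 0.22 and 0.18, against -0.09, 0.16 and 0.06 for all genes. Fancd2, the protein that is ubiquitinated when a crosslink is met, was at 5.42, 5.46, 7.34, 5.89 and 6.92 FPKM in vehicle, 8.40, 5.82 and 7.53 in iCT and 8.48, 8.62, 7.93 and 8.72 in relapse mice. Every relapse library of Fancd2 lay above every vehicle library, and iCT overlapped both. The relapse change of Fancd2 against vehicle was 0.40 (SE 0.138, interval 0.10 to 0.70, adjusted p = 0.2214), and that of iCT was 0.19 (SE 0.15, adjusted p = 0.4028), or 0.09 without iCT mouse 1.

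Fancl, the ubiquitin ligase that modifies Fancd2, had the most negative change of the 43 genes in iCT and rested on a zero. It was at 9.18, 9.21, 11.67, 8.54 and 10.3 FPKM in vehicle, at 0, 9.32 and 4.27 in iCT and at 11.9, 8.24, 7.52 and 11.9 in relapse mice. The change to iCT was -1.501 (SE 0.533, adjusted p = 0.08953), -0.54 (adjusted p = 0.2218) without iCT mouse 1 and -2.22 (adjusted p = 0.008458) without iCT mouse 2. Vrk2, a kinase gene on the other strand whose exons overlap those of Fancl, was also listed at 0 in iCT mouse 1 and at 11.6 to 24.7 FPKM elsewhere; it was looked up after these values were seen. Fance, a core complex subunit, was at 9.78, 9.74, 5.90, 10.48 and 6.70 FPKM in vehicle, 20.2, 8.86 and 11.3 in iCT and 7.54, 10.6, 10.6 and 11.97 in relapse mice. Its change to iCT was 0.55 (SE 0.256, adjusted p = 0.1676) and 0.24 without iCT mouse 1, whose value was the highest of the 12. The core genes Fanca, Fancb, Fancc, Fancf and Fancg had vehicle means of 7.96, 2.89, 4.01, 7.03 and 10.7 FPKM and changes to iCT of 0.07, 0.17, -0.04, -0.02 and -0.32. With iCT mouse 1 left out these were 0.12, 0.20, 0.01, -0.12 and -0.09. Fanci, the partner of Fancd2, had 6.59 FPKM and -0.18, and the translocase Fancm 1.26 FPKM and 0.27, which was 0.01 without iCT mouse 1.

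All 5 end joining genes had negative changes in iCT (median -0.53) and positive ones from iCT to relapse (median 0.47), and 1 of these 10 values passed. Of all genes 9.62% and 9.72% passed in these 2 comparisons, with median changes of -0.09 and 0.16. The pattern of the end joining genes rested on iCT mouse 1, where Prkdc and Xrcc5 were listed at 0 and Xrcc4 and Lig4 rested on 1 implied fragment each. Without that mouse 4 of 5 were negative in iCT with a median of -0.05, and 3 of 5 were positive from iCT to relapse with a median of 0.07. Prkdc, the catalytic kinase subunit of the end joining machinery, rose from iCT to relapse. It was at 1.29, 1.497, 2.40, 1.85 and 2.42 FPKM in vehicle, at 0, 1.16 and 1.79 in iCT and at 2.58, 3.10, 3.12 and 2.67 in relapse mice. Every relapse library lay above every other library, and iCT overlapped vehicle. The change from iCT to relapse was 1.09 (SE 0.300, interval 0.43 to 1.74, adjusted p = 0.04001), and without iCT mouse 1 it was 0.65 (adjusted p = 0.07761) and no longer passed. The call held in 3 of 19 alternatives, those without vehicle mouse 1, iCT mouse 2 or iCT mouse 3. The change from vehicle to iCT was -0.65 (SE 0.287, adjusted p = 0.1504), or -0.22 (adjusted p = 0.5601) without iCT mouse 1, and from vehicle to relapse 0.43 (SE 0.264, adjusted p = 0.4804). Prkdc spans chr16:15637866-15842239 on the plus strand and starts head to head with the replication gene Mcm4.

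The 2 subunits of the Ku ring, which binds the ends first, differed in transcript level. Xrcc6 was at 32.2, 33.2, 39.8, 34.5 and 37.2 FPKM in vehicle, 11.3, 34.9 and 31.3 in iCT and 38.2, 34.9, 35.7 and 37.2 in relapse mice. The low value of iCT mouse 1 rested on 9 implied fragments, and the change of -0.58 (SE 0.265, adjusted p = 0.1641) was -0.09 without it. Xrcc5 was at 1.79, 0.793, 2.17, 1.73 and 2.72 FPKM in vehicle, at 0, 1.88 and 1.46 in iCT and at 3.19, 1.38, 1.05 and 1.41 in relapse mice. Its change to iCT was -0.53 (adjusted p = 0.3366), and -0.05 without iCT mouse 1. Per length of transcript Xrcc6 was 11.96 to 41.88 times Xrcc5 in the 11 libraries where Xrcc5 was above 0; exons of Xrcc6 overlap those of Desi1 on the other strand. Of the genes that seal the ends, the scaffold Xrcc4 had a vehicle mean of 5.89 FPKM and a change to iCT of -0.45, and the ligase Lig4 1.05 FPKM and -0.07. Xrcc4 was at 1.79 FPKM in iCT mouse 1 against 6.44 and 5.01 in the others, and without that mouse the changes of Xrcc4 and Lig4 were -0.03 and 0.06.

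The mismatch and base repair genes had the highest median level of the 5 pathways (22.4 FPKM over their vehicle means). In any comparison 0 of 5 passed. Of all genes 9.62% passed in iCT against vehicle, 9.72% in relapse against iCT and 0% in relapse against vehicle. Xrcc1, the scaffold of single-strand break repair, came nearest in iCT. It was at 19.2, 25.8, 23.2, 22.5 and 21.6 FPKM in vehicle, 12.3, 15.97 and 17.3 in iCT and 21.96, 20.96, 18.4 and 29.1 in relapse mice. Every iCT library lay below every other library. The change to iCT was -0.54 (SE 0.159, interval -0.89 to -0.20, adjusted p = 0.05101), and it passed in 6 of 19 alternatives. It was -0.41 (adjusted p = 0.1564) without iCT mouse 1. From iCT to relapse Xrcc1 changed by 0.54 (SE 0.166, adjusted p = 0.05924).

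Ung, which cuts uracil out of DNA, was at 27.98, 26.8, 31.7, 35.5 and 32.5 FPKM in vehicle, 4.44, 25.3 and 20.04 in iCT and 28.4, 33.6, 31.4 and 37.3 in relapse mice. Again every iCT library lay below every other library, and the lowest rested on 1.96 implied fragments. The change to iCT was -1.14 (SE 0.378, adjusted p = 0.07448), -0.43 without iCT mouse 1 and -1.57 (adjusted p = 0.01332) without iCT mouse 2. Parp1, the sensor of single-strand breaks, was at 37.3, 43.8, 42.3, 44.6 and 40.4 FPKM in vehicle, 56.4, 35.9 and 45.4 in iCT and 52.5, 59.5, 48.3 and 58.7 in relapse mice. Every relapse library of Parp1 lay above every vehicle library, with a change of 0.38 (SE 0.124, interval 0.11 to 0.65, adjusted p = 0.197). Parp1 changed to iCT by 0.12 (SE 0.135, adjusted p = 0.5852), and by -0.04 without iCT mouse 1. The mismatch repair genes Msh6 and Pms2 had vehicle means of 21.4 and 11.4 FPKM and changes to iCT of 0.13 and 0.29, and that of Pms2 turned to -0.07 without iCT mouse 1.

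**Figure D3:**
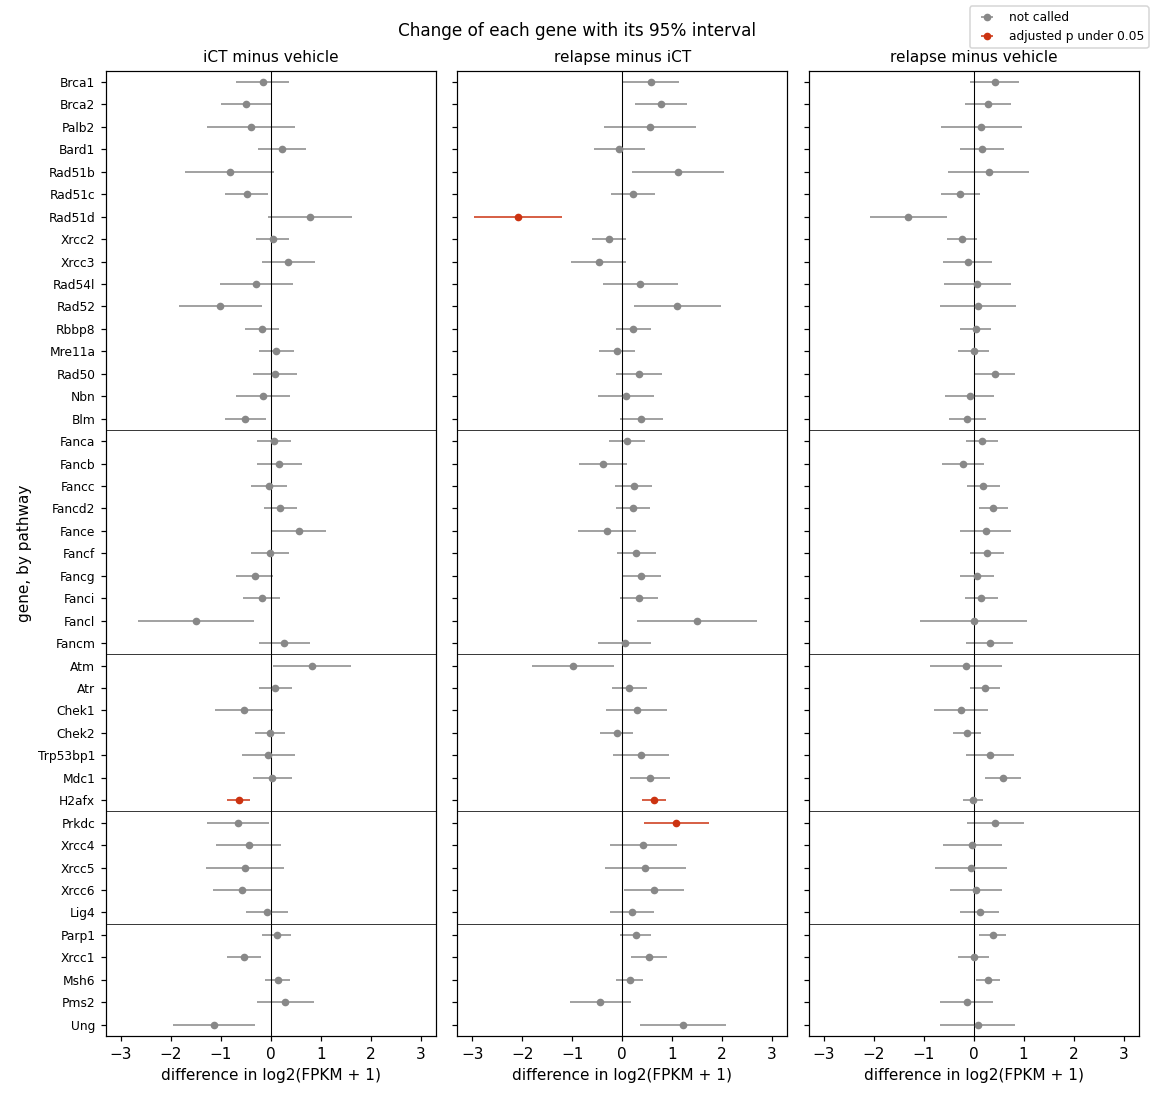
Difference in log2(FPKM + 1) between groups for each of the 43 genes with its 95% interval from limma, by pathway; red marks an adjusted p under 0.05. H2afx is the 1 red gene in the first panel, Rad51d, H2afx and Prkdc are red in the second, and the third has none.

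Relapse was compared with vehicle to ask whether the leukaemia cells that regrew after chemotherapy differed in these genes from cells never treated. In limma 0 of 43 passed, where 0 of all 11019 genes did (a background of 0%), and the lowest adjusted p among the 43 was 0.1796. At an unadjusted p under 0.05 there were 6 of the 43 (14%), against 14.6% of all genes. Every relapse library lay above every vehicle library in 6 genes, Brca2, Fancd2, Trp53bp1, Mdc1, Prkdc and Parp1, and below in 1, Rad51d, so 16.3% did not overlap against 13.7% of all genes (9.72% above and 4.03% below). Mdc1 was chosen for a full account after its values were seen. It was at 4.25, 6.04, 6.28, 5.99 and 6.96 FPKM in vehicle, 6.64, 4.37 and 7.32 in iCT and 9.80, 9.63, 8.10 and 9.58 in relapse mice. Its relapse libraries lay above all 8 others, and the change against vehicle was 0.58 (SE 0.165, interval 0.22 to 0.94, adjusted p = 0.1796). The test depended on how the spread was estimated. With array weights, which count down libraries that deviate, 4 of the 43 passed, where 971 of all 11019 genes did. These 4 were Rad51d, Fancd2, Mdc1 and Parp1. In a fit of only these 2 groups 3 of the 43 passed, Rad51d, Mdc1 and Parp1, where 612 of all 10833 genes did.

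The rest of the repair machinery was described by 84 further genes, all tested. In iCT against vehicle 4 of them were higher and 0 lower (4.76%, against 9.62% of all genes). Their median change was -0.18, against -0.09 for all genes. Of the 84 values 63 were negative, and of all 11019 genes 6408 were. Without iCT mouse 1 the medians by pathway ran from -0.19 (Fanconi) to 0.12 (nucleotide excision repair), against -0.03 for all genes. Fen1, the flap endonuclease of replication and base repair, was at 72.2 ± 7.10 FPKM in vehicle (SD, n = 5) and 96.6 ± 5.24 in iCT (SD, n = 3), a change of 0.42 (SE 0.104, adjusted p = 0.02738). Mpg, a glycosylase for alkylated bases, rose by 0.54 (SE 0.156, adjusted p = 0.04777). The other 2 were subunits of the TFIIH complex of nucleotide excision repair and transcription, Gtf2h1 at 0.63 (adjusted p = 0.02834) and Ercc3 at 0.45 (adjusted p = 0.04082). Without iCT mouse 1 Fen1 and Mpg still passed, at 0.46 and 0.72 (adjusted p = 0.03628 and 0.007167), and Gtf2h1 and Ercc3 did not, at 0.45 and 0.35 (adjusted p = 0.08702 and 0.1168). By pathway these calls were 2 of 20 mismatch and base repair genes (10%) and 2 of 18 nucleotide excision repair genes (11.1%), near the 9.62% of all genes. Of 17 recombination, 10 Fanconi, 13 checkpoint and 6 end joining genes 0 passed, and all 13 of the checkpoint and all 6 of the end joining genes had negative values, as had 6408 of all 11019 genes. Without iCT mouse 1 the values were negative in 10 of these 13 and 4 of these 6, and in 5949 of 10961 genes. The summed level of the 6 end joining genes was 9.58 FPKM in iCT mouse 1 and 24.1 and 22.3 in iCT mice 2 and 3.

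From iCT to relapse 3 of the 84 were higher and 1 lower (4.76%, against 9.72% of all genes). The median change of the 84 was 0.26, against 0.16 for all genes. Lig1, the ligase of replication, rose by 0.42 (adjusted p = 0.04288), Timeless, a fork protection protein, by 0.77 (adjusted p = 0.04406), and Wdr48, a cofactor of the enzyme that removes ubiquitin from Fancd2, by 0.68 (adjusted p = 0.04447). Gtf2h1 fell by 0.68 (adjusted p = 0.02403). Without iCT mouse 1 none of these 4 passed, with Lig1 at 0.32, Timeless at 0.54, Wdr48 at 0.40 and Gtf2h1 at -0.50 (adjusted p of 0.06025 to 0.1205). In relapse against vehicle 0 of the 84 passed, as did 0 of all genes.

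Transcripts of the p53 programme, which damage kinases switch on, stood higher in the same iCT libraries. Of 17 p53 targets tested 9 were higher and 1 lower in iCT (58.8%, against 9.62% of all genes), with a median change of 0.67. Their summed level was 306.2 to 355.7 FPKM in vehicle, 590.1 to 664.5 in iCT and 294.1 to 360.5 in relapse libraries. Cdkn1a, the cyclin kinase inhibitor, was at 15.4 ± 3.40 FPKM in vehicle (SD, n = 5) and 89.9 ± 16.7 in iCT (SD, n = 3), a change of 2.48 (adjusted p = 4.89e-05). Phlda3 changed by 4.59 and Zmat3 by 2.22 (adjusted p = 3.417e-05 and 8.668e-05). Genes of S phase and division had median changes near 0 in iCT, while single genes moved either way. Of 25 DNA replication genes 0 passed in iCT (median -0.05, range -2.16 to 0.34). Their sums were 1991 to 2324 FPKM in vehicle and 1964 to 2212 in iCT. Of 20 genes of G2 and mitosis 0 were higher and 1 lower (5%, median -0.07, range -0.61 to 0.695). The sums of these 20 were 668.4 to 814.8 FPKM in vehicle and 763.8 to 880 in iCT. The background was 9.62% of all genes, with a median of -0.09. The iCT and vehicle libraries did not overlap in 25% of the G2 and mitosis genes (3 higher and 2 lower in iCT). That share was 8% of the replication genes and 16.1% of all genes.

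Which repair genes passed depended on the iCT mouse left out, and so did the number of all genes that passed. Without iCT mouse 1 the 1 gene called against vehicle was again H2afx, where 686 of all 10961 genes were called. Without iCT mouse 2 there were 9 called, where 2722 of all 10963 genes were. These 9 were Rad51d, Fance and Atm, which were higher, and Blm, Fancl, H2afx, Xrcc6, Xrcc1 and Ung, which were lower. Without iCT mouse 3 the 3 called were Rad52, H2afx and Xrcc1, all lower, where 1218 of all 10932 genes were called. In relapse against iCT 2 passed without iCT mouse 1, 9 without iCT mouse 2 and 8 without iCT mouse 3. Of all genes 816 of 10961, 1579 of 10963 and 1855 of 10932 passed in these 3 fits, in that order. Whether the repair genes shifted more than all genes was not tested. H2afx was called in all 19 alternatives in both comparisons with iCT, and Rad51d in all 19 in relapse against iCT.

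**Figure D4:**
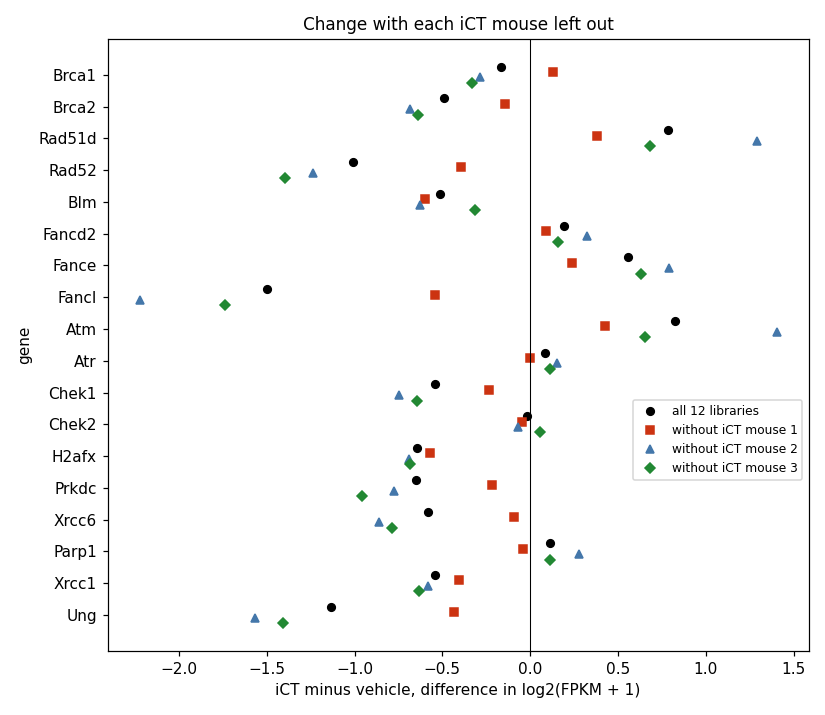
Change from vehicle to iCT in log2(FPKM + 1) for 18 genes with all 12 libraries (black circles) and with each iCT mouse left out (red squares, blue triangles, green diamonds). H2afx stays between -0.69 and -0.57, while Fancl, Ung, Rad52 and Atm spread widely, with the values without iCT mouse 1 nearest to 0.

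Precision set a limit to these statements. The 43 genes had a median vehicle level of 7.67 FPKM against 11.3 for all genes tested, and 16 of them (37.2%) lay under 5 FPKM against 30.1%. The median SE of a change in iCT was 0.225 against 0.195 for all genes. In GENCODE M21, 20 of the 43 had exons that overlap a gene on the other strand, 13 of them a coding gene, and whether the counting used strand is not known from the labels or headers. For 3 members exons overlapped a gene on the same strand, of which 1, Rsph10b beside Pms2, was coding.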

How the data were processed

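RNA-seq was read from 12 gene tables, 1 per mouse, which the authors deposited as FPKM from Cufflinks with 95% confidence bounds, per the file headers. STAR and Cufflinks are named per the submitters' processing notes, without versions, and neither headers nor notes state scaling, multi-mapping or strand. Although mm9 is the build in the notes, 22890 of 23033 symbols (99.4%) overlapped the GRCm38 gene of that name, so coordinates are given as GRCm38. The fragments behind a value were inferred by taking the upper bound minus the FPKM, dividing 2 FPKM by it and squaring; they cover counting error only.

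Values were taken as log2(FPKM + 1), which understates changes of low genes, and tested with limma 3.58.1 in R 4.3.3. The model was also run on values simulated with normal noise from the means and spread of these same genes, which leaves out the shallow library's zeros. Genes reaching 1 FPKM in 3 or more libraries (11019) entered 1 model of all 12 libraries with group as the term. The prior variance followed a trend on level, and p-values were adjusted by Benjamini-Hochberg at a threshold of 0.05. Spreads are SDs over mice, and intervals are limma's at 95%. The 43 genes, the 84 further repair genes and the context lists were chosen with earlier results of these data known, so they are described by counts and medians and no list was tested as a set. Genes given in full were those that passed in any comparison, the 2 with the smallest p in iCT against vehicle in each pathway, and Atm, Atr, Chek1, Chek2, H2afx, Brca1, Brca2, Fancd2, Prkdc and Parp1. Of the other repair genes up to 3 that passed per pathway were named in iCT against vehicle and up to 2 in the other comparisons, and of context lists up to 3. An erythroid marker gene is not reported here by name.

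The 19 alternatives were a pseudocount of 0.1, no filter on low values, median-of-ratios scaling, array weights (statmod 1.5.0), a separate fit for each pair of groups, a replicate block, subtraction of length and GC trends (mgcv 1.9.3, with values for 96.2% of genes tested), and the omission of each of the 12 libraries. Promoter windows came from the RefSeq table for GRCm38.p6.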

Additional observations from a re-analysis of the deposited data

Results flagged for a closer look

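In each of the 43 genes the vehicle and relapse groups were checked for a single mouse far from the rest of its group, with 86 groups checked. Chance alone flags about 1 in 20 groups, and 5 were flagged. Rad51c in vehicle mouse 3 stood at 5.04 FPKM, above the other vehicle mice at 2.98 to 3.57. Blm in the same mouse stood at 10.1 FPKM, above 7.12 to 7.90. Mdc1 in relapse mouse 3 stood at 8.10 FPKM, below the other relapse mice at 9.58 to 9.80 and still above every vehicle and iCT mouse. Xrcc4 in relapse mouse 1 stood at 8.61 FPKM, above 4.60 to 5.16, and Xrcc5 in the same mouse at 3.19 FPKM, above 1.05 to 1.41. The 3 mice of the iCT group were not checked in this way.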

How the results depend on the processing

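Over 54 changes of 18 named genes, 952 of 1026 alternative values kept their direction and side of the threshold, 16 lost the call (all of them Prkdc in relapse against iCT), 28 gained one and 30 turned sign, all at a size of at most 0.155. The called genes of the 43 in iCT against vehicle numbered 1, 2 with median-of-ratios scaling, 2 with length and GC trends removed, and 1 to 9 without each library in turn (2 without vehicle mouse 1 or relapse mouse 4, 3 without iCT mouse 3, 9 without iCT mouse 2). In relapse against iCT they numbered 3, and 2 to 9 without each library. In relapse against vehicle they numbered 0, 4 with array weights, 3 in the fit of only the 2 groups, and 0 without each library. Of all genes 1060 were called in iCT against vehicle, 457 with array weights, 351 in the fit of 2 groups and 569 to 2722 without each library. In relapse against iCT 1071 were called, 603 with array weights, 252 in the fit of 2 groups and 529 to 1855 without each library. In relapse against vehicle 0 were called, 1604 at an unadjusted p under 0.05, 971 with array weights, 612 in the fit of 2 groups, 3 with length and GC trends removed, 1 without the filter and 0 to 5 without each library. The split of calls in iCT against vehicle was 365 higher and 695 lower, 496 and 615 with median-of-ratios scaling and 656 and 624 with length and GC trends removed, and in relapse against iCT it was 729 and 342, then 490 and 514, then 478 and 628. The cause of these shifts was not tested.

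Mouse numbers did not pair the libraries: the 10 same-number pairs had correlations of -0.091 to 0.099, and 0 of 12 libraries correlated best with its own number. With the replicate block 197, 372 and 0 genes of all were called in the 3 comparisons, H2afx was called in both comparisons with iCT and Rad51d in relapse against iCT, and Fancl in relapse against vehicle turned to 0.015.

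Signs also turned with array weights (Brca1 0.017 and Atr -0.009 in iCT against vehicle), with median-of-ratios scaling (Chek2 0.024 in iCT against vehicle, Xrcc6 -0.025 in relapse against vehicle) and with length and GC trends removed (Chek2 0.147 in iCT against vehicle, Atr -0.062 in relapse against iCT, Fancl 0.155 and Xrcc6 -0.092 in relapse against vehicle). Over the omission of each library, changes from vehicle to iCT crossed 0 for Brca1 (-0.331 to 0.128), Atr (-0.003 to 0.15), Parp1 (-0.042 to 0.277) and Chek2 (-0.067 to 0.058). Those from iCT to relapse did so for Fance (-0.549 to 0.004) and Chek1 (-0.021 to 0.492), and those from vehicle to relapse for Rad52 (-0.077 to 0.180), Fancl (-0.094 to 0.105), H2afx (-0.062 to 0.048) and Xrcc1 (-0.126 to 0.085). The depth of iCT mouse 1, at 361914 implied fragments, limits what comparisons with iCT can show for genes of low level.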

Other observations

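The fall of H2afx in iCT prompted a look at the other genes of the H2A family, chosen after values were seen. H2afv, a variant histone gene, was at 121.1 ± 16.6 FPKM in vehicle (SD, n = 5), 72.3 ± 8.56 in iCT (SD, n = 3) and 119.7 ± 6.66 in relapse (SD, n = 4). Its change to iCT was -0.73 (SE 0.122, limma adjusted p = 0.004365) and from iCT to relapse 0.72 (SE 0.128, adjusted p = 0.00632), and every iCT library lay below every other library. H2afz, H2afy and H2afj gave changes to iCT of 0.04, -0.13 and 0.04 (adjusted p = 0.812, 0.4475 and 0.83). H2afz, the most abundant of the 5, was at 1271 ± 48.1, 1313 ± 195.3 and 1198 ± 65.0 FPKM in vehicle, iCT and relapse. Whether H2afx changed more than these genes was not tested.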
